A study of Mus musculus with 3 samples.

Results

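The axon guidance ligands and receptors are cell-surface and secreted proteins that steer growing axons, and many of them also steer migrating blood vessels and leukocytes. The genes of these proteins were examined for intervals of EZH2, the histone methyltransferase of a polycomb complex, in mouse bone marrow-derived macrophages. The members were all RefSeq protein-coding genes whose symbols name ephrins (Efna, Efnb), Eph receptors (Epha, Ephb), semaphorins of classes 3 to 7 (Sema), plexins (Plxn), Slits, Robos, netrins (Ntn) or netrin receptors of the Unc5 family. The rule gave 66 genes of 21887 on chromosomes 1 to 19, X and Y, which were 35 ligands and 31 receptors. The rule reads symbols and uses no summit value.

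Marrow cells from the long bones of adult C57BL/6 mice were grown into macrophages with M-CSF, and were given LPS, a bacterial cell wall component, for 2 h (LPS) or left untreated (NT). Chromatin was immunoprecipitated with an EZH2 antibody and sequenced (ChIP-seq), the service being run by a company, with 1 library per condition. A library of input DNA was not used here. With no replicate, no difference between LPS and NT was tested, and all values are given without p-values. The deposited track of stimulated cells is named TLR rather than LPS. It was taken as the LPS sample because LPS acts on a Toll-like receptor (TLR) and no other stimulated EZH2 sample was listed, which limits every LPS value below.

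An interval is a stretch of the genome (build mm10) that the authors listed as enriched in a library, and its summit value is the deposited whole number at its highest point, with no unit given. The LPS list held 4651 intervals with summit values of 7 to 100 (median 16), and the NT list held 9643 with values of 11 to 253 (median 27). Read depth and scaling between the libraries are unknown, so neither a lower value nor a missing interval in LPS measures a loss of EZH2. A gene was counted as carrying an interval when the interval came within 2.5 kb of the first or last annotated base of the gene. The files hold no RNA, so the cell type could not be checked by expression. Of 8 macrophage marker genes (Csf1r, Adgre1, Cd68, Itgam, Spi1, Lyz2, Mertk and Fcgr1), none carried an LPS interval, against 16.2% of all protein-coding genes. Mertk (36) and Spi1 (23) carried an NT interval, which is 25% of the list, against 38.2% of all protein-coding genes. With 8 genes these shares cannot be told from those of all genes.

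The families work as matched sets. Ephrins are membrane-bound ligands of Eph receptor tyrosine kinases, semaphorins act on plexins, Slits act on Robos, and netrins act on Dcc and the Unc5 receptors. Most of these cues repel or attract growth cones through small GTPases that reshape actin. EZH2 methylates histone H3 at lysine 27, and genes of development that are silent in a cell type are a known class of its targets, usually at start sites rich in CG dinucleotides.

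EZH2 intervals lay at most guidance genes in both libraries. An LPS interval was present at 38 of 66 guidance genes (57.6%, 95% Wilson interval 45.6 to 68.8%), against 16.2% of all protein-coding genes. An NT interval was present at 46 of 66 (69.7%, 57.8 to 79.4%), against 38.2% of all protein-coding genes. Both libraries had one at 38 guidance genes, the same share of 57.6%, against 15.6% of all protein-coding genes. NT alone had one at 8 guidance genes (12.1%), against 22.6% of all protein-coding genes. LPS alone had one at 0 of 66, and the share over all protein-coding genes was 0.535%. A count of 0 allows a share of up to 4.55% if 3 of 66 genes is taken as its limit, and up to 5.50% by the Wilson interval. The counts in NT alone and in LPS alone depend on the longer NT list. The NT list was also cut to its highest summits, as many as LPS had intervals. Then 31 of 66 guidance genes had an NT interval, against 20.5% of all protein-coding genes. With this cut, 1 guidance gene (Slit2) had an interval in NT alone and 8 had one in LPS alone. When each list was kept from its median summit value up, 5 had one in NT alone (Slit2, Sema4b, Plxnc1, Plxnb2 and Ntn3). At these settings the shares in NT alone and in LPS alone were not counted over all protein-coding genes. With the full lists, neither library had an interval at 20 guidance genes (30.3%), against 61.3% of all protein-coding genes. The Wilson intervals cover counting error only and treat genes as independent, which neighbouring genes and gene families are not. Among ligands and receptors, 20 of 35 ligands (57.1%) and 18 of 31 receptors (58.1%) carried an LPS interval. An NT interval was present at 25 of 35 ligands (71.4%) and 21 of 31 receptors (67.7%).

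**Figure D1:**
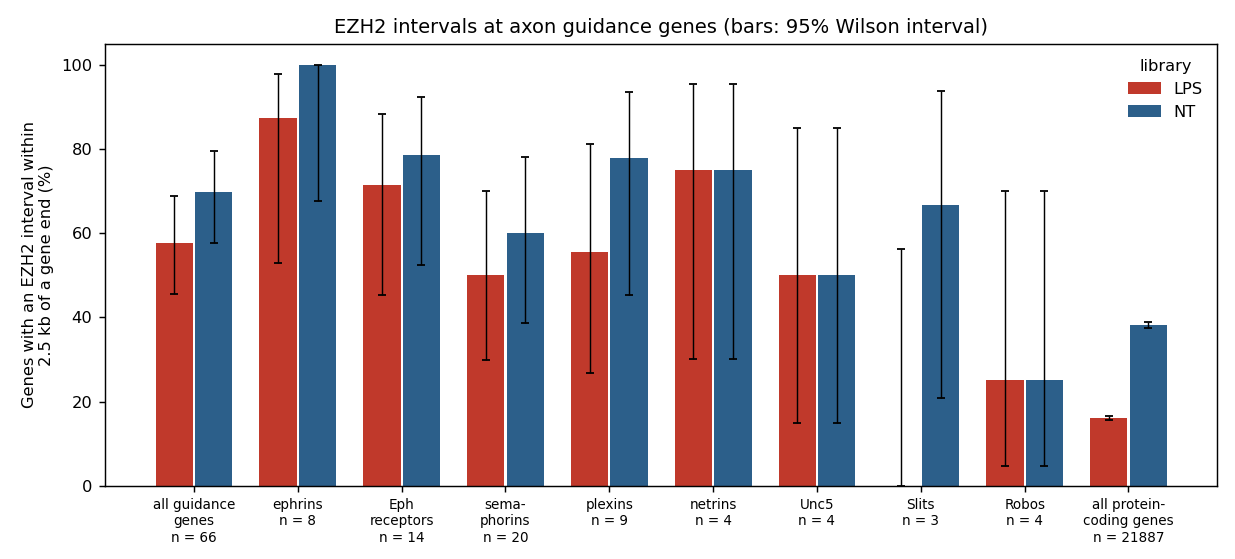
Share of genes (%) with an EZH2 interval within 2.5 kb of a gene end in LPS (red) and NT (blue), for all guidance genes, each family, and all protein-coding genes. Bars give the share and whiskers its 95% Wilson interval. The ephrins stand highest, with 87.5% in LPS and 100% in NT, and the Slits have no LPS interval.

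The families hold 3 to 20 genes each, and their counts varied widely. All 8 ephrin genes carried an NT interval and 7 carried an LPS interval. Of the 14 Eph receptor genes, 10 had an LPS and 11 an NT interval. Of the 20 semaphorin genes, 10 had an LPS and 12 an NT interval. Of the 9 plexin genes, 5 had an LPS and 7 an NT interval. Among the smaller families, 3 of 4 netrin genes and 2 of 4 Unc5 genes had one in each library, as did 1 of 4 Robo genes. No Slit gene had an LPS interval within the window, and 2 of 3 had an NT interval.

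Guidance genes with intervals at a gene end had a higher median count of CG dinucleotides at their start sites than those without. Promoter sequence from RefSeq (GRCm38.p6, the assembly of mm10) was matched to 57 of the 66 genes, and covers 250 bases before to 50 after a start site. For a gene with several start sites the one richest in CG dinucleotides was used. At Sema3a, Robo1, Robo2, Sema4d and Unc5a, which had no interval at a gene end, the start used lay inside the gene. It was beyond 2.5 kb of either gene end, where intervals were counted. The same was so at Epha6, Sema4b and Sema4c. The 33 matched genes with an interval in both libraries had a median of 27 CG dinucleotides in these 300 bases (range 10 to 56). The 7 with an NT interval alone had a median of 25 (7 to 42), and the 17 with neither had a median of 14 (2 to 37). The 37 is the count of Unc5a, which is placed here because it had no interval at a gene end. Its printed promoter was met by intervals of both libraries. Over all protein-coding genes the medians in the same order were 23, 24 and 6. The promoters that follow show this range and its exceptions, in lower case with each CG dinucleotide in capitals, 5′ to 3′ in the direction of the gene. Efna3, Ephb2 and Plxnb1 are shown because they carried some of the highest summits, and Unc5a because its highest summit lay near an inner start site. Slit3 is shown as a CG-rich start with an NT interval alone nearby, and Epha5 as a CG-rich start with no interval. Robo4 is a CG-poor start of a gene with none, and Sema3a a CG-poor inner start of such a gene.
Efna3 (chr3:89321719-89322018, minus strand): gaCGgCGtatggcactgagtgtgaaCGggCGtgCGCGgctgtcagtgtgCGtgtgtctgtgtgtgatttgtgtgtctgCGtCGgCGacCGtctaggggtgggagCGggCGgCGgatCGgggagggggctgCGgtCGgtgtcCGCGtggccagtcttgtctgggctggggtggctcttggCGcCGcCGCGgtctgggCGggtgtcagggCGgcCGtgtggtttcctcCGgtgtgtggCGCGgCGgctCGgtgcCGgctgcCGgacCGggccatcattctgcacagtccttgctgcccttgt
Ephb2 (chr4:136835963-136836262, minus strand): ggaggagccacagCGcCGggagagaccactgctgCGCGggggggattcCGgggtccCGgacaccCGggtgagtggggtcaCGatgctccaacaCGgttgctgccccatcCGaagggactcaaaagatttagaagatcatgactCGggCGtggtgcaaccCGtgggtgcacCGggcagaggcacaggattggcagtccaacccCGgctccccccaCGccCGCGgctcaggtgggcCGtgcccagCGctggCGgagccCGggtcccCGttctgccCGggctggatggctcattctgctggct
Plxnb1 (chr9:109095186-109095485, plus strand): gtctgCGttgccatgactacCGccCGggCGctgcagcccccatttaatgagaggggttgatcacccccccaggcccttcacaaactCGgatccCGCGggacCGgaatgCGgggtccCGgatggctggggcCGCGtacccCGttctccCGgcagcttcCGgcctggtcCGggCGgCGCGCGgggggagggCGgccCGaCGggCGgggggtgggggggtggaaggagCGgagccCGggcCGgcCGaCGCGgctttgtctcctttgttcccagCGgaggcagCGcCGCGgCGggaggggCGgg
Unc5a (chr13:54949161-54949460, plus strand): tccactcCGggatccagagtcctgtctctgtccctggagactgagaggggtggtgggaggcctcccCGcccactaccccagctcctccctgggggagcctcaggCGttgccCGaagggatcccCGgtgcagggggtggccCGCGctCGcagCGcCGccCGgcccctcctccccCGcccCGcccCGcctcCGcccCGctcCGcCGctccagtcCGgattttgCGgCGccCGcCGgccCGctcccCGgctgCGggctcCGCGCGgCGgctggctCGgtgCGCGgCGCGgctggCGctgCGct
Slit3 (chr11:35121206-35121505, plus strand): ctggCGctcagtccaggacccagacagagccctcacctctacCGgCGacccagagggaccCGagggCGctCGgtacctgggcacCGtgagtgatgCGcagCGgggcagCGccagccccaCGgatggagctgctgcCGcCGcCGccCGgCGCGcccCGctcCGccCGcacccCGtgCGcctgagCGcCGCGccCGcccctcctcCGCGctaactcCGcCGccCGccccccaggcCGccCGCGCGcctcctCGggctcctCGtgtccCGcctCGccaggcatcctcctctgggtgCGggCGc
Epha5 (chr5:84417333-84417632, minus strand): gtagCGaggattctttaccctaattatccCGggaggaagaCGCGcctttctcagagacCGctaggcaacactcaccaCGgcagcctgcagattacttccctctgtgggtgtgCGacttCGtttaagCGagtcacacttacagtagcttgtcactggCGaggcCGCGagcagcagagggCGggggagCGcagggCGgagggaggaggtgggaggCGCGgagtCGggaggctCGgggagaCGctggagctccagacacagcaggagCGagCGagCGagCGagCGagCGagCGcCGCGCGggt
Sema3a (chr5:13396534-13396833, plus strand): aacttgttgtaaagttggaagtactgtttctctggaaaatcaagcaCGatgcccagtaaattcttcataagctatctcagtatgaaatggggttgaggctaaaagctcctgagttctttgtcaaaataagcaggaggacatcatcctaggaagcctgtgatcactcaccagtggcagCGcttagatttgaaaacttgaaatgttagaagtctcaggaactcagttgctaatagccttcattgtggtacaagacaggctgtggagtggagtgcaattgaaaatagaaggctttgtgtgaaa
Robo4 (chr9:37401722-37402021, plus strand): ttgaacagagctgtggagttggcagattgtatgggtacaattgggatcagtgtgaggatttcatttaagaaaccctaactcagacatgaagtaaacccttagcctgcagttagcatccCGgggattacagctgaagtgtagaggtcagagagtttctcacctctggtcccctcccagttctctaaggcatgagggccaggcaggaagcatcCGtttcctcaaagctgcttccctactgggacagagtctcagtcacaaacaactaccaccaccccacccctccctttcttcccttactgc

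The counts behind these letters were 34 CG dinucleotides for Efna3, 24 for Ephb2, 36 for Plxnb1, 37 for Unc5a, 41 for Slit3, 30 for Epha5, and 2 each for Sema3a and Robo4. Guidance genes were also set beside genes of like CG count. Of guidance genes with 25 or more CG dinucleotides, 17 of 23 (73.9%) carried an LPS interval, against 26.2% of 4738 protein-coding genes with as many. An NT interval was carried by 21 of 23 (91.3%), against 67.0%. Unc5a counts among those without, since its intervals lay beyond the windows at the gene ends. With 15 to 24, 12 of 17 guidance genes (70.6%) had an LPS and 13 of 17 (76.5%) an NT interval, against 21.4% (LPS) and 53.8% (NT) of 4010 protein-coding genes. With 5 to 14, 4 of 12 guidance genes had an LPS and 6 of 12 an NT interval, against 12.7% (LPS) and 27.0% (NT) of 3933 protein-coding genes. None of the 5 guidance genes with 4 or fewer had an interval, and 2.49% of all such genes had one in LPS and 5.03% in NT. For Sema3a and Sema4d among these 5, the count is that of an inner start. Epha2 had the lowest count among the genes with both intervals (10), and Sema4f, with 7, had an NT interval alone.

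**Figure D2:**
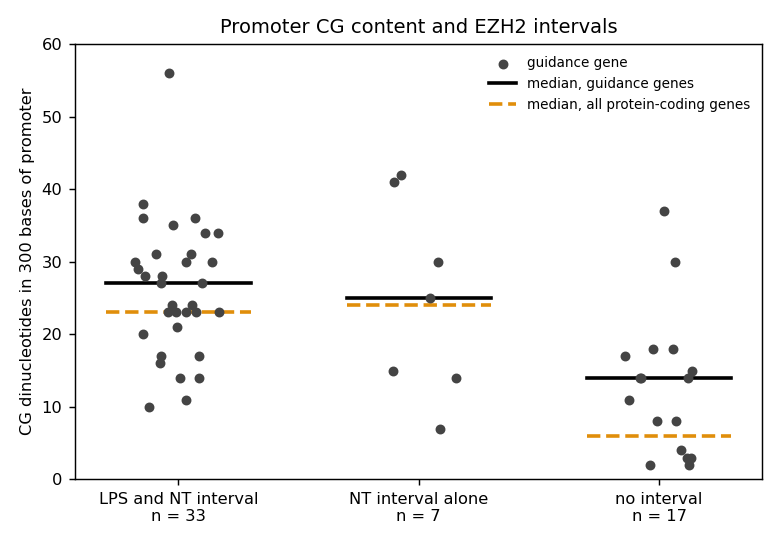
CG dinucleotides in the 300 bases around a start site of 57 guidance genes (dots), grouped by the libraries in which the gene had an interval at a gene end. Unc5a, with intervals inside the gene alone, is in the group with no interval. Black lines give the guidance gene median (27, 25 and 14 from left to right) and dashed lines the median of all protein-coding genes in the same state (23, 24 and 6).

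The letters GGGCGG, the core of the site of Sp-family factors, were searched on both strands. This motif holds a CG dinucleotide and so overlaps with that count. It was found in 28 of 33 promoters (84.8%) of guidance genes with both intervals, against 70.7% of all protein-coding genes with both. With an NT interval alone it was found in 5 of 7 (71.4%), against 72.3%, and with neither in 9 of 17 (52.9%), against 33.6%. Over the promoters of all 17492 protein-coding genes the share was 48.1%. Plxnb1 held 5 copies and Efna3 held 3, while Ephb2 held 0 although its summit values were among the highest.

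Nearly all ephrin ligands carried intervals in both libraries. Efna3, a ligand anchored to the membrane by a lipid, had a summit value of 64 in LPS and 126 in NT, above 97.9% of the genes with an LPS interval and 99.2% of those with an NT interval. Its main interval ran from 89317443 to 89323561 on chromosome 3 in LPS and from 89317182 to 89323764 in NT. Efna1, Efna3 and Efna4 lie in a row on chromosome 3, with gaps of 32.9 kb and 10.5 kb, and each had intervals of its own. Efna1, known also as a ligand induced by tumour necrosis factor in endothelium, had 26 in LPS and 61 in NT. Efna4 had 12 in LPS and 25 in NT. The Efna4 interval also met the window of its neighbour Adam15. Efna5, which guides axons in topographic maps such as that of the visual system, had 31 in LPS and 63 in NT.

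Among the transmembrane ephrins, Efnb2, which marks arterial endothelium, had 35 in LPS and 95 in NT. Efnb3, a midline repellent of spinal axons, had 17 in LPS and 27 in NT, in an interval that also met the window of Wrap53. Efnb1, on the X chromosome, had 21 in NT and no LPS interval. Thus the values within this family spanned 12 to 64 in LPS and 21 to 126 in NT.

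Efna2 stood apart within the family in where its summit lay. Its highest summit, 41 in LPS and 80 in NT, was at the far end of the gene, 11047 bp after the start site in LPS and 11079 bp in NT. The interval there ran from 80188279 to 80192335 on chromosome 10 in LPS and from 80188420 to 80192305 in NT. At the start of the gene the summit value was 14 in LPS, and 25 and 26 in a pair of NT intervals. No other protein-coding gene had an end within 2.5 kb of these intervals.

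The netrins are secreted relatives of laminin, and Ntn1 had the highest summit value of all guidance genes in each library. Ntn1, the netrin that attracts spinal commissural axons and is also made by macrophages in vascular disease, had 70 in LPS and 129 in NT. Its interval ran from 68383986 to 68387732 on chromosome 11 in LPS and from 68383973 to 68388975 in NT, and no interval lay at the other end of the gene. Ntn4 had 23 in LPS and 68 in NT. Ntn3 had 14 in LPS and 42 in NT. Ntn3 shares its interval with Tbc1d24. Ntn5 carried none.

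The semaphorins divided by class. Of the 7 class 3 genes, which encode secreted repellents that act through neuropilins and plexins, 1 had an LPS and 2 an NT interval. Sema3f had 29 in LPS and 58 in NT, and Sema3c had 17 in NT alone. Sema3a, Sema3b, Sema3d, Sema3e and Sema3g had no interval. Of the 6 class 4 genes, 3 had an LPS and 4 an NT interval. Sema4c had 20 in LPS and 37 in NT. Sema4b had 11 in LPS and 31 in NT, Sema4g had 13 in LPS and 24 in NT, and Sema4f had 24 in NT alone. Sema4a and Sema4d, both known from the immune system, where Sema4d is also called CD100, carried none.

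Semaphorins of classes 5 to 7, which are bound to the membrane, carried intervals in both libraries at 6 of 7 genes. Sema7a, which is anchored by a lipid and acts on integrins and plexin C1 in immune cells, had 42 in LPS and 81 in NT. Sema6c had 42 in LPS and 89 in NT at the far end of the gene, 9166 bp (LPS) and 9198 bp (NT) after the nearest annotated start of the gene. At its first start it had 29 in LPS and 44 in NT. Sema6b had 24 in LPS and 52 in NT at its start. A second interval of Sema6b, with 21 in LPS and 31 in NT, lay closer to the start of Lrg1 than to the gene's own. Sema5b had 30 in LPS and 45 in NT. Sema6a, with 11 in LPS and 21 in NT, and Sema5a, with 10 in LPS and 16 in NT, were the lowest of these classes.

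The Slits, secreted repellents of the midline, carried NT intervals alone at their gene ends. Slit2 had 27 and Slit3 had 19, both in NT alone, and the Slit3 interval ended before the start site. Slit1 had none within the window. An interval inside Slit1, with 19 in LPS and 32 in NT, lay beyond 2.5 kb of either gene end.

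Eph receptors, tyrosine kinases that signal on contact between cells, were next. Ephb2 had 48 in LPS and 122 in NT, above 93.9% of the genes with an LPS interval and 99.0% of those with an NT interval. Its NT interval from 136832710 to 136837564 on chromosome 4 was met by 2 LPS intervals, from 136833566 to 136835720 and from 136835873 to 136837403. The summit lay nearest to the start of Gm31536, a predicted gene, at 510 bp in LPS and 670 bp in NT, and lay 587 bp (LPS) and 747 bp (NT) after the start of Ephb2. Ephb3 had 41 in LPS and 73 in NT. Ephb4, which marks venous endothelium, had 19 in LPS and 30 in NT. Ephb6, whose kinase domain is inactive, had 12 in LPS and 24 in NT, and Ephb1 had 10 in LPS and 20 in NT. All 5 Ephb genes therefore carried both intervals.

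The Epha genes were more mixed. Epha7 had 41 in LPS and 61 in NT. Epha2, prominent in epithelia, had 28 in LPS and 57 in NT. Epha10 (32 in NT) and Epha8 (31 in NT) had 19 each in LPS. The intervals counted for Epha10 also met the window of Maneal. Epha4, a receptor needed for the guidance of motor and corticospinal axons, had 15 in LPS and 19 in NT. The interval counted for Epha6 (20 in NT alone) met the far end of that gene, and its summit lay 16 bp from the start of the neighbouring gene Arl6. Epha1, Epha3 and Epha5 had none.

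Plexins, the receptors of semaphorins, had their highest values at Plxnb1 and Plxna4. Plxnb1, the receptor of Sema4d, had 40 in LPS and 114 in NT, in intervals from 109093846 to 109097361 (LPS) and from 109093818 to 109097837 (NT) on chromosome 9. These intervals also met the window of Ccdc51. Plxna4 had 32 in LPS and 94 in NT. Plxnc1, the receptor of Sema7a, had 14 in LPS and 36 in NT. Plxnd1, the receptor of Sema3e in vessels, had 22 in LPS and 31 in NT, and Plxnb2 had 12 in LPS and 27 in NT. The Plxnb2 intervals counted here also met the window of Dennd6b. Plxna1 (24) and Plxna2 (23) had NT intervals alone, and the Plxna1 intervals also met the window of the predicted gene Gm40415. Plxna3 and Plxnb3, both on the X chromosome, had none.

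Among the Robo and Unc5 receptors, 3 of 8 genes carried an interval at a gene end, the same genes in LPS and in NT. Robo3, which lets commissural axons cross the midline, had 17 in LPS and 31 in NT, while Robo1, Robo2 and the endothelial Robo4 had none. Robo3 and Robo4 lie 2.02 kb apart, and the Robo3 intervals did not reach the window of Robo4. Unc5b, a netrin receptor of vessels and macrophages, had 19 in LPS and 40 in NT. Unc5c had 16 in LPS and 22 in NT. Unc5d had none. Unc5a had no interval at either end of the gene, but 27 in LPS and 44 in NT with the summit 354 bp before an inner start site, whose sequence is printed above.

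**Figure D3:**
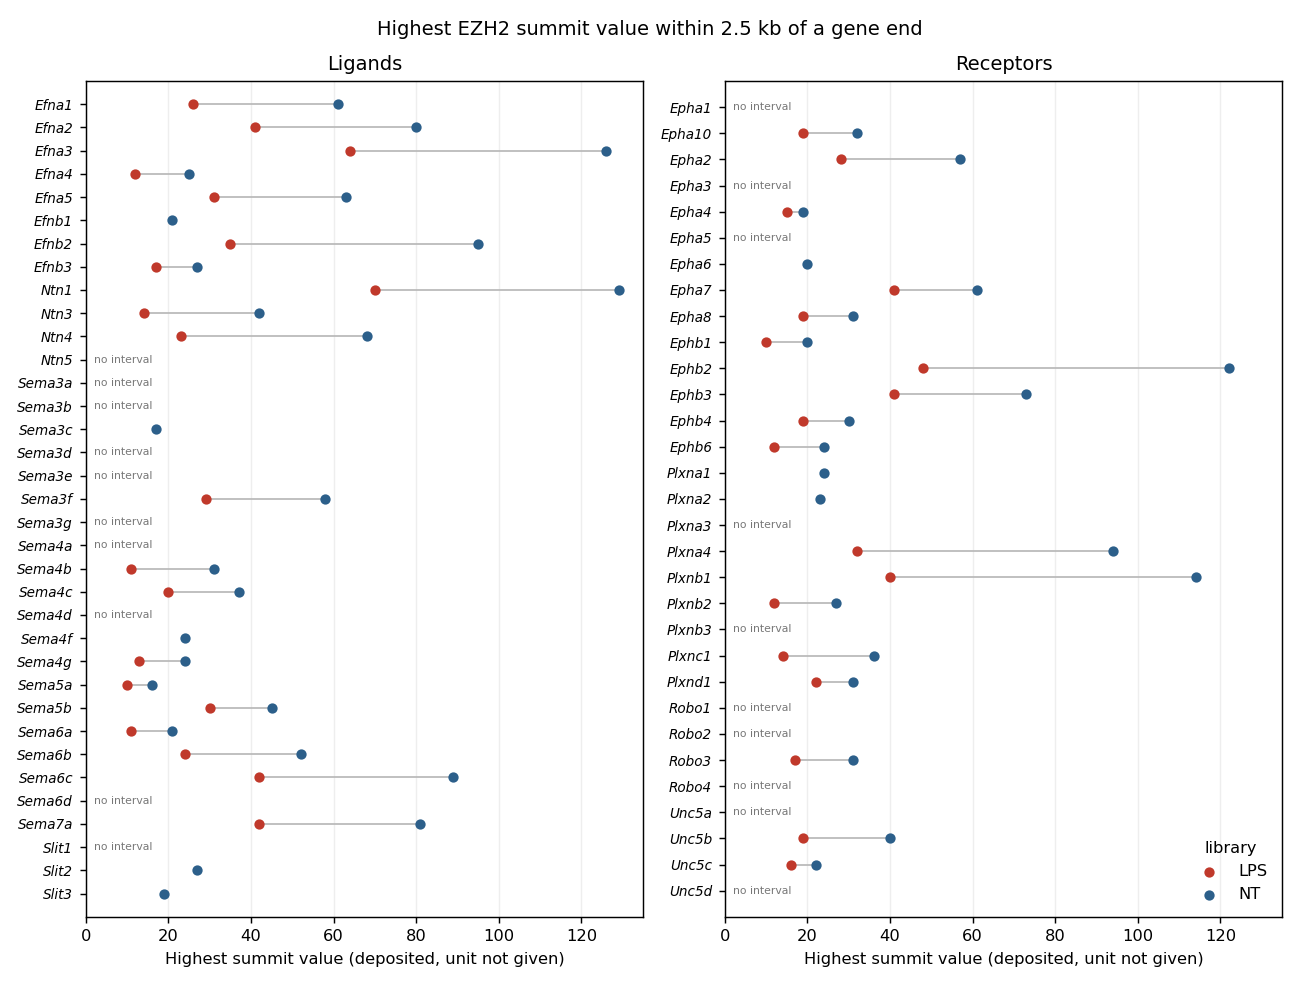
Highest EZH2 summit value (deposited number, unit not given) of intervals within 2.5 kb of a gene end, in LPS (red) and NT (blue). Each of 35 ligands and 31 receptors is shown. A summit itself can lie farther out, as at Sema4c and Slit2. A grey line joins the values of a gene with both. LPS lies below NT at all 38 genes with both, and 8 genes have an NT point alone.

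With the gene body added to the windows, 3 more genes carried intervals in both libraries. These were Sema6d (26 in LPS and 54 in NT), Slit1 and Unc5a, which gave 41 genes in LPS (17.6% of all protein-coding genes by the same count) and 49 in NT (40.5%). The other 17 guidance genes had no interval of either library there. Guidance genes were long, with a median of 42.3 kb against 17.2 kb over all protein-coding genes, so their interiors are covered less by the windows. Of 37 guidance genes under 100 kb, 25 (67.6%) had an LPS and 28 (75.7%) an NT interval, against 2913 (LPS) and 7195 (NT) of the 19458 protein-coding genes of that length. Of 29 at 100 kb or longer, 13 (44.8%) had an LPS and 18 (62.1%) an NT interval, against 25.6% (LPS) and 48.0% (NT) of all genes of that length.

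Where strand was known, the intervals lay at the start of the gene. Of 33 such genes with an LPS interval, 29 had it at the start end alone, 4 at both ends and 0 at the far end alone. Of 40 with an NT interval the counts were 34, 5 and 1, and the last was Epha6. Over all protein-coding genes, 75.9% in LPS and 78.8% in NT had it at the start end alone. The highest summit lay within 1000 bp of an annotated start for 28 of 33 guidance genes in LPS (84.8%, against 73.2% of all genes) and 33 of 40 in NT (82.5%, against 80.3%). It lay after the start at 29 of 33 genes in LPS and 29 of 40 in NT. Its median distance from the start, in either direction, was 435 bp in LPS and 340.5 bp in NT. Neither the share after the start nor this distance was taken over all protein-coding genes. Some intervals also met the window of another protein-coding gene, which was the case at 7 of 38 guidance genes in LPS and 9 of 46 in NT. Such an interval cannot be assigned to the guidance gene alone. The share of genes with such an interval was not counted over all protein-coding genes.

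**Figure D4:**
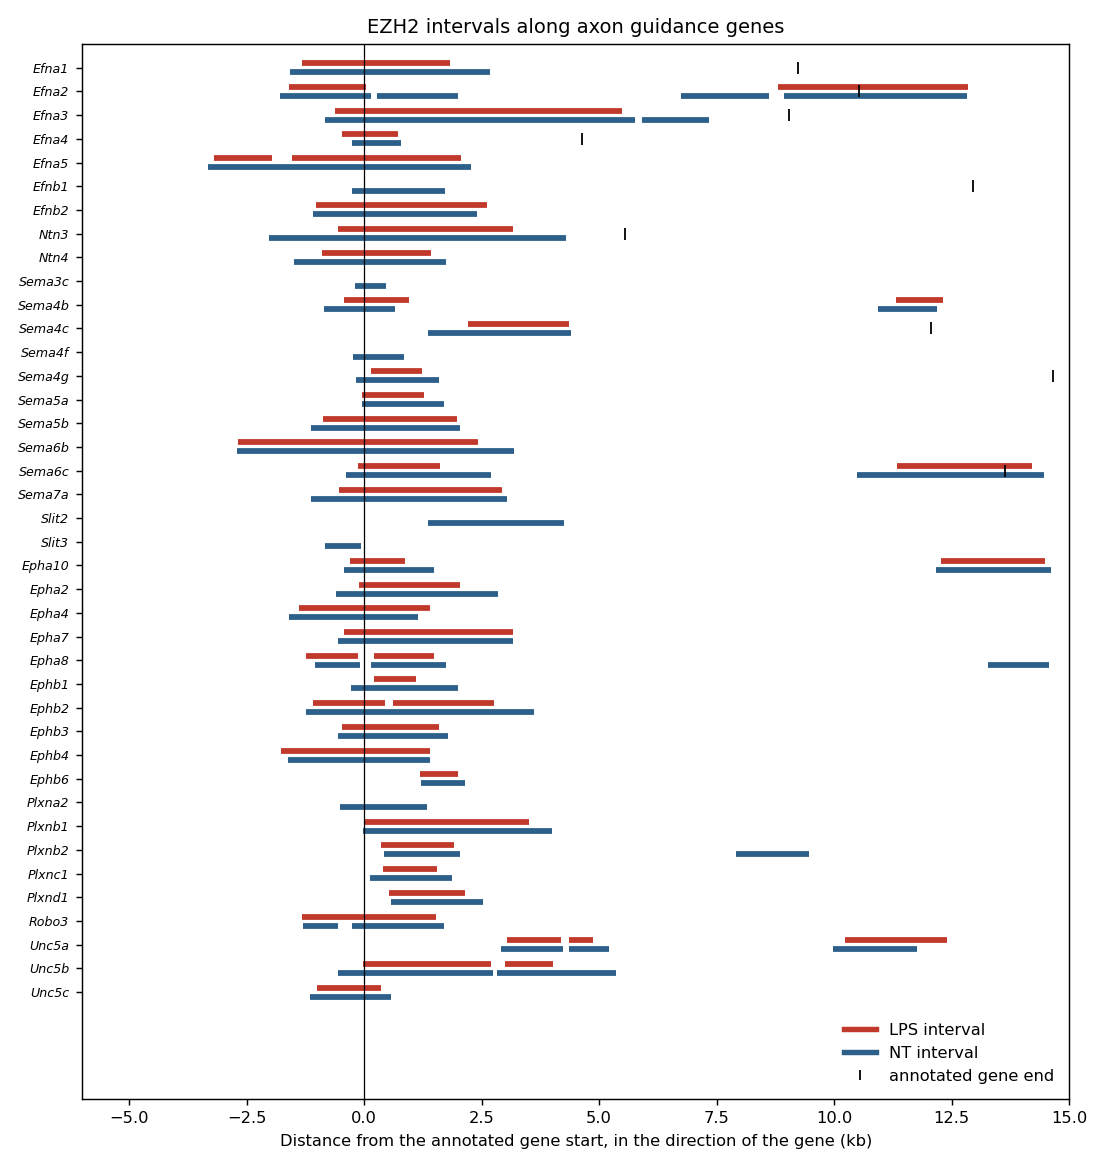
EZH2 intervals in LPS (red, upper) and NT (blue, lower) along guidance genes with known strand, by distance from the annotated gene start (kb, in the direction of the gene), with ligands above receptors. Black ticks mark gene ends within 15 kb. Most intervals span or abut the start, while Efna2 and Sema6c also have one over the gene end, and intervals farther out are not drawn.

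Intervals differed in breadth. They covered 3 kb or more of the windows at 13 of 38 guidance genes in LPS (34.2%, against 20.2% of all genes with an LPS interval) and at 18 of 46 in NT (39.1%, against 13.0%). At 4 kb or more the counts were 4 of 38 in LPS (10.5%, against 9.64%) and 9 of 46 in NT (19.6%, against 5.94%), so in LPS the share was near that of all genes. The median covered length was 2511.5 bp in LPS and 2465.5 bp in NT for guidance genes, against 1587 bp (LPS) and 1350 bp (NT) for all genes with an interval. The most covered in LPS were Efna2 (5696 bp), Sema6b (5433), Sema6c (4622), Efna5 (4146), Plxna4 (3945) and Efnb2 (3530). In NT they were Efna2 (8138 bp), Sema6c (6203), Ntn3 (5776), Sema6b (5593), Efna5 (4766) and Ntn1 (4650). Both gene ends were met at Efna2, Sema6b, Sema6c and Ntn3, which adds to their totals. All 45 LPS intervals at guidance genes met an NT interval of the same gene. Such meetings were not counted over all genes. Of the 3536 protein-coding genes with an LPS interval, 3419 also had an NT interval, so having both was not particular to guidance genes. At Efna5, Ephb2 and Plxna4 a single NT interval corresponded to 2 LPS intervals, and at Efna2, Efna3 and Robo3 there were fewer LPS than NT intervals.

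The design sets LPS beside NT. The 38 guidance genes with both intervals had a median LPS to NT ratio of summit values of 0.504 (quartiles 0.449 and 0.586). Over the 3419 protein-coding genes with both, it was 0.491 (0.407 and 0.577). The LPS value was below the NT value at all 38, as it was at 99.6% of the 3419, and unequal depth of the 2 libraries would enter every ratio. The highest ratios were at Epha4 (0.789), Unc5c (0.727), Plxnd1 (0.710), Epha7 (0.672), Sema5b (0.667) and Ephb4 (0.633). The lowest were at Ntn3 (0.333), Ntn4 (0.338), Plxna4 (0.340), Plxnb1 (0.351), Sema4b (0.355) and Efnb2 (0.368). Summit values near the lower limit of a list come in coarse steps, so ratios of low genes such as Epha4, with 15 in LPS and 19 in NT, are imprecise, and their error cannot be given without replicates. Over all protein-coding genes with both, the median ratio was 0.632 at NT values up to 20 and 0.519 over 20 and up to 30. It was 0.457 over 30 and up to 50, and 0.486 over 50. The ratio thus varied with NT value, and the ratios by gene and by family were not taken at like NT value. By family the median ratio was 0.578 at 10 Eph receptors, 0.521 at 10 semaphorins, 0.492 at 7 ephrins and 0.389 at 5 plexins. In the smaller families it was 0.601 at 2 Unc5 genes and 0.338 at 3 netrins, and Robo3 had 0.548.

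**Figure D5:**
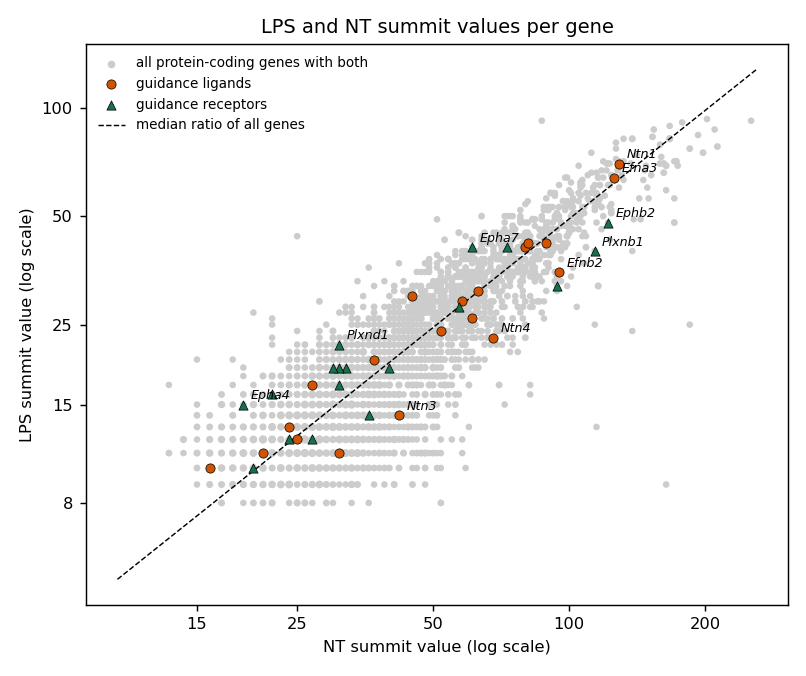
LPS summit value against NT summit value (both log scales) for guidance ligands (circles) and receptors (triangles) with both intervals, over all 3419 protein-coding genes with both (grey, larger where genes coincide). The dashed line is the median ratio of all genes (0.491), and the guidance genes lie on both sides of it.

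Most guidance genes with an NT interval had an LPS interval too. This was so at 38 of 46 (82.6%), against 40.9% of 8362 protein-coding genes with an NT interval. This share was higher at higher NT values over all genes, so it was also taken at like NT value. With NT values over 30 and up to 50 it was 10 of 10 guidance genes, against 55.1% of 2354 genes. Over 20 and up to 30 it was 8 of 13 (61.5%), against 25.3% of 3363, and up to 20 it was 3 of 6, against 12.8% of 1529. Over 50 it was 17 of 17, against 96.4% of 1116. Breadth moves with this share as well. With NT values up to 30 and under 2 kb covered, 7 of 14 guidance genes had an LPS interval, against 17.3% of 4364 genes. With the same values and 2 kb or more covered, 4 of 5 did, against 55.1% of 528. With values over 30 and up to 50 it was 5 of 5 in each of these breadth classes, against 37.9% of 1525 narrow and 86.6% of 829 broad genes. These limits were chosen with the values known, and the groups of guidance genes are small. The 8 genes with NT intervals alone were Slit2 (27), Plxna1 and Sema4f (24), Plxna2 (23), Efnb1 (21), Epha6 (20), Slit3 (19) and Sema3c (17). All lay below the median NT value of all genes with an NT interval (28). Over the 4943 protein-coding genes with an NT interval alone, the median was also lower, at 24 (quartiles 20 and 30).

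Guidance genes known from macrophages and other myeloid cells also carried intervals. Of 9 such genes, 6 (66.7%) carried an LPS interval, against 57.6% of all guidance genes and 16.2% of all protein-coding genes. An NT interval was present at 7 (77.8%), against 69.7% of all guidance genes and 38.2% of all protein-coding genes. Ntn1 and Sema7a had the highest values, Unc5b, Plxnc1, Plxnd1 and Plxnb2 had lower ones in both libraries, Plxna1 had an NT interval alone, and Sema4a and Sema4d had none. Expression of these genes was not measured here.

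Other genes of the pathway, taken by function, carried intervals at higher shares than all genes. Of 53 co-receptors, adaptors and cytoskeletal effectors, 24 (45.3%, Wilson interval 32.7 to 58.5%) had an LPS interval, against 16.2% of all protein-coding genes. An NT interval was present at 34 (64.2%, 50.7 to 75.7%), against 38.2%. These Wilson intervals overlap those of the guidance genes (45.6 to 68.8% in LPS, 57.8 to 79.4% in NT). The shares of these lists therefore cannot be told apart. NT alone had one at 10 (18.9%, 10.6 to 31.4%), against 22.6% of all protein-coding genes. LPS alone had one at 0, which allows up to 6.76% by the Wilson interval, against 0.535%. Among co-receptors and surface ligands, Flrt1, a ligand of Unc5 receptors, had 49 in LPS and 83 in NT. Neo1, a receptor of netrins and repulsive guidance molecules, had 36 in LPS and 72 in NT. The neuropilin Nrp1 had 12 in LPS and 21 in NT, Nrp2 had 28 in NT alone, and the netrin receptor gene Dcc had none. Among intracellular effectors, the collapsin response mediators Dpysl5 and Dpysl2 had 33 in LPS each, with 71 and 65 in NT. Among the GTPase genes, which are used in every cell, Rhoa had 10 in LPS and 37 in NT, Cdc42 had 32 in NT alone, and Rac1 had none.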

How the data were processed

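EZH2 ChIP-seq of LPS and NT macrophages was analysed from interval and summit tracks. BWA, SICER and mm10 appear in the submitters' processing notes, without versions or roles. The score of each summit was deposited by the authors as a whole number with no unit. Other columns are positions, deposited by the authors with a start counted from 0, and are printed here counted from 1. Depth, duplicate removal, use of the input and scaling are not given in the sources used here.

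Intervals were matched to gene ends in the RefSeq table of GRCm38.p6 by at least 1 bp, with Python 3.11.15, pandas 2.3.3 and scipy 1.17.1. Each gene took its highest summit value per library. This step was tested on simulated data. Strand and start sites came from RefSeq promoter entries of 57 genes. Wilson intervals are at 95%. With 1 library per condition no test was run.

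The members and lists were chosen with earlier results of these data known. All members are accounted for. Those named by rule were the 4 highest of each family or class, the 6 most covered per library, the 6 highest and lowest ratios, the 6 highest with NT alone and the myeloid genes. Other genes named, the printed promoters and the limits on NT value, breadth, length and CG count were chosen after their values were seen. Windows, interval lists and overlap were varied.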

Additional observations from a re-analysis of the deposited data

How the results depend on the processing

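No paired analysis was possible because LPS and NT had a single library, which also leaves no replicate to omit. Of 44 recomputed values, 42 kept within 1.5 times the reported one. The count in LPS alone was not among these values. With the NT list shortened, the count of guidance genes with an LPS interval could not change. The alternatives were windows of 1 kb and 5 kb, the gene body, the start end alone (57 genes with known strand), summit values not below the list's median, an NT list shortened to 4651 intervals, summits inside the window and at least 500 bp covered (ratio not run). A further one, chosen after seeing the data, counted an interval for a guidance gene only where the nearest start site was its own. Guidance genes with an LPS interval numbered 27 to 41 and those with an NT interval 31 to 49, and the median ratio was 0.496 to 0.510. Over all protein-coding genes the share with an interval was 9.75% to 17.7% in LPS and 20.5% to 40.9% in NT. The count by nearest start site was not run over all genes. The count in NT alone was 5 with summit values not below the median and 1 (Slit2) with the shortened NT list, both of which leave fewer intervals by construction. The count in LPS alone, reported as 0, was 8 with the shortened NT list (Epha4, Efna4, Unc5c, Ephb6, Ephb1, Sema5a, Sema6a and Sema4g), 1 (Unc5c) with values not below the median and 1 (Ephb2) by nearest start site. Unknown depth limits every comparison of LPS with NT.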
